A study of Rattus norvegicus with 174 samples.

Results

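The genes described here are those of cholesterol synthesis and of cholesterol movement across the cell surface: Srebf2, Insig1, Hmgcs1, Idi1, Fdft1, Sqle, Scarb1 and Abca1. Members were chosen by gene symbol, as the probe sets whose platform symbol is one of these 8 names, and of several probe sets of a gene the brightest on average was taken. For 7 of the 8, a probe set with that single symbol was found, and these are 7 of the 13438 genes measured. Hmgcs1, the first committed enzyme of the pathway, is not named in the platform annotation used here and was not analysed.

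The animals were adult male Sprague-Dawley rats, an outbred stock, of 300 to 400 g, which breathed phosphine (PH3), a fumigant gas, or air in a whole-body chamber. The labels give 660 ppm over 32.2 min to exposed rats, which multiply to 21252 ppm x min and equal 0.91 of the LCt50, the dose lethal to a median animal, and 0 ppm over 32.2 min to air rats. The solid tissues sampled 1, 3, 6 or 24 h later were brain, heart, kidney, liver and lung, from 4 exposed and 4 air rats per hour, except that only 2 air rats were sampled at 6 h. Blood came from 4 exposed and 4 air rats at 1 h and at 3 h, from 5 exposed rats and 1 air rat at 6 h, and from 2 exposed rats with no air rat at 24 h. Exposed and air rats were different animals, while the 5 solid tissues at one hour and exposure came from the same rats. Ketamine and xylazine were given to all rats, air rats included, at euthanasia. Levels are log2 microarray signals, so that a difference of 1 between groups is a 2-fold difference in signal.

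Cells make cholesterol from acetyl-CoA through a long chain of enzymes that share a transcriptional switch. SREBP2, the protein of Srebf2, is held in the endoplasmic reticulum by the sterol sensor SCAP and by INSIG proteins while sterols are plentiful. When sterols fall, SREBP2 is cut, enters the nucleus and switches on the synthesis enzymes, and it also switches on Insig1, which closes the loop. The scavenger receptor SR-BI, the protein of Scarb1, takes up cholesteryl esters from high-density lipoprotein, mainly in liver and steroid-making glands. ABCA1 exports cholesterol to lipid-poor apolipoprotein A-I and is a classic target of the oxysterol-sensing liver X receptors.

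The labelled tissues carried their own marker transcripts. The mean of a tissue's own list lay between 12.95 and 13.13 for hepatocyte genes in liver, between 12.37 and 12.82 for alveolar genes in lung, between 10.43 and 10.83 for nephron genes in kidney, between 10.98 and 12.77 for cardiomyocyte genes in heart, between 10.85 and 11.27 for neural genes in brain and between 10.95 and 12.28 for erythroid genes in blood. On 11 solid-tissue arrays the markers of another organ also exceeded that tissue's median by 4 log2 or more. These were 5 hearts of exposed rats (hepatocyte markers in Rat712 at 1 h, Rat729 at 3 h, Rat760 at 6 h and Rat741 at 24 h, alveolar markers in Rat749 at 24 h), the kidney of air Rat720 at 1 h (hepatocyte), the lungs of exposed Rat716 at 1 h (hepatocyte) and of exposed Rat729 and air Rat733 at 3 h (muscle), and the livers of exposed Rat719 at 1 h (muscle) and Rat741 at 24 h (nephron). The muscle list holds 2 measured genes. Values without these 11 arrays are given below where they end a call, turn a direction or move a described value by over 1.5 times, and for the called pathway genes of heart. Just under the cutoff lay both air hearts at 6 h, with hepatocyte markers at 7.34 (Rat762) and 7.56 (Rat763). The exposed hearts at 6 h had 3.60, 3.61, 5.77 and 8.38 (Rat760). Both air hearts were kept, so heart controls at 6 h hold hepatocyte transcripts with and without the 11 arrays.

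In air rats, liver had the highest mean of 6 of the 7 genes, and Srebf2, highest in brain, was the exception. Insig1 averaged 10.31 ± 0.68 in air livers (SD, n = 14), followed by brain at 8.48 ± 0.20, lung at 8.37 ± 0.23, heart at 7.92 ± 0.19, kidney at 7.81 ± 0.27 and blood at 5.80 ± 0.60 (n = 9). The ranges of neighbouring tissues in this order overlapped down to kidney, and blood lay apart below it. Idi1 averaged 9.52 ± 0.30 in air livers, with brain at 8.59 ± 0.21, kidney at 8.06 ± 0.27, lung at 7.66 ± 0.31, heart at 6.01 ± 0.39 and blood at 5.06 ± 0.45. Liver lay apart from brain, and lung from heart, while the other neighbours overlapped.

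Fdft1 in air rats lay at 9.88 ± 0.22 in liver, 8.86 ± 0.14 in kidney, 8.62 ± 0.16 in brain, 8.51 ± 0.16 in heart, 7.38 ± 0.23 in lung and 5.21 ± 0.98 in blood, and kidney, brain and heart overlapped in that order. Sqle was level between liver (8.44 ± 0.31) and brain (8.41 ± 0.16), whose ranges overlapped, then lower in lung (7.14 ± 0.24) and kidney (7.07 ± 0.29), and lowest in heart (5.01 ± 0.44) and blood (4.52 ± 0.48). Srebf2 spanned a narrow interval, between 8.14 ± 0.18 in brain and 6.40 ± 0.20 in heart, and only heart lay apart from its neighbour, kidney at 7.04 ± 0.15.

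Scarb1 averaged 7.99 ± 0.17 in air livers and 7.005 ± 0.37 in air lungs, which overlapped, against 5.77 ± 0.18 in brain, which lay apart from both of its neighbours. Heart (4.93 ± 0.32), kidney (4.91 ± 0.15) and blood (4.84 ± 0.51) overlapped at the bottom, so that kidney, where the clearest difference after phosphine was found, started among the lowest levels. Of all genes measured in air kidneys, 37.6% had a lower mean than Scarb1. Abca1 was highest in air liver (9.06 ± 0.56) and lung (8.44 ± 0.59), followed by brain (6.86 ± 0.71), kidney (5.28 ± 0.58) and heart (5.24 ± 0.50), each overlapping the next, and blood lay apart at 3.12 ± 0.22. Its SD between air rats was at least 0.50 in each solid tissue. Whether the tissues were normalized together is not given in the sources used here, so levels across tissues carry that limit.

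**Figure D1:**
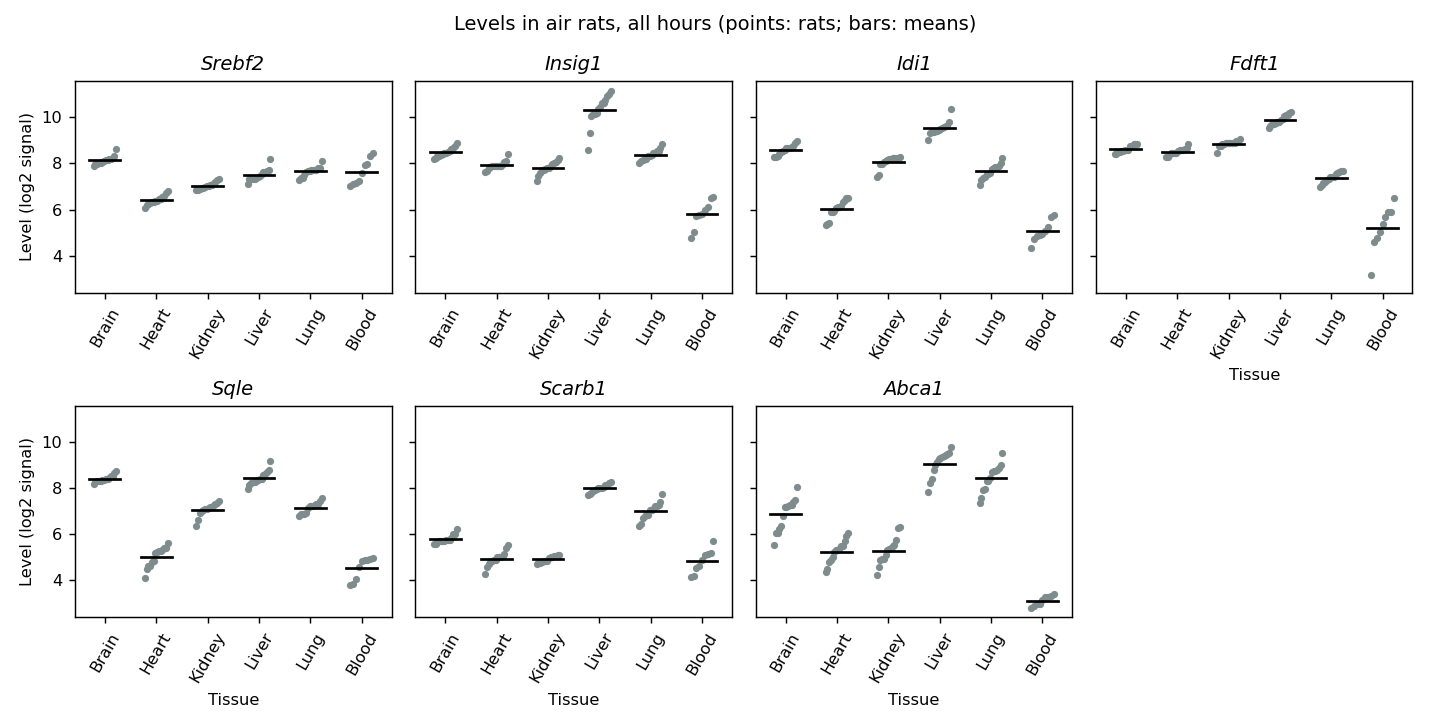
Level (log2 signal) of each of the 7 genes in air rats of all hours, by tissue. Points are rats (14 per solid tissue, 9 for blood) and bars are means. Liver has the highest mean of every gene except Srebf2, and Scarb1 in kidney is a tight cluster near 4.91.

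Air levels did not pass the test of a difference between hours for any of the 7 genes in any solid tissue (limma's moderated F, Benjamini-Hochberg adjusted over 13438 genes). The lowest adjusted p was 0.21, for Insig1 in brain. By the same test, the share of all genes that differed between hours in air rats was 0% in brain, 0.104% in heart, 0.64% in kidney, 0.246% in liver and 1.67% in lung.

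Between phosphine and air, 5 of 161 pairs of a gene and a comparison passed the threshold, an adjusted p under 0.05 in limma. In kidney, Insig1 rose at 1 h and Scarb1 rose at 3 and 6 h. In lung, Idi1 fell at 3 h, and in blood Idi1 fell at 3 h. Brain, heart and liver had 0 called pairs of 28 each. At an unadjusted p under 0.05 limma gave 1 of 28 in brain, 4 in heart and 7 in liver. It gave 10 of 28 in kidney, 6 of 28 in lung and 4 of 21 in blood. Of all genes, 11%, 8.65%, 5.64% and 3.79% had such a p in brain at 1, 3, 6 and 24 h. The shares were 10.9%, 18%, 9.37% and 7.61% in heart and 17.4%, 19.6%, 10.1% and 5.5% in kidney. They were 6.76%, 15.6%, 9.21% and 7.14% in liver and 18.2%, 25.3%, 8.8% and 3.16% in lung. In blood they were 7.72%, 22.4% and 10.2% at 1, 3 and 6 h.

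The counts of called pairs stand against the following share of all genes called. In kidney, where 3 of 28 pairs passed, it was 3.12% at 1 h, 6.39% at 3 h, 0.35% at 6 h and 0% at 24 h. In lung, with 1 of 28, it was 5.8%, 11.6%, 0.0967% and 0.00744% at the same hours. In blood, with 1 of 21, it was 0.00744% at 1 h, 6.6% at 3 h and 0.0521% at 6 h. Heart had 1.33%, 3.33%, 0.35% and 0.0819%, liver 0.335%, 3.85%, 0.223% and 0%, and brain 0.149%, 0.506%, 0% and 0%. A single called gene of 7 lies above each of these shares by itself, so that the counts alone do not set the members apart from other genes.

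**Figure D2:**
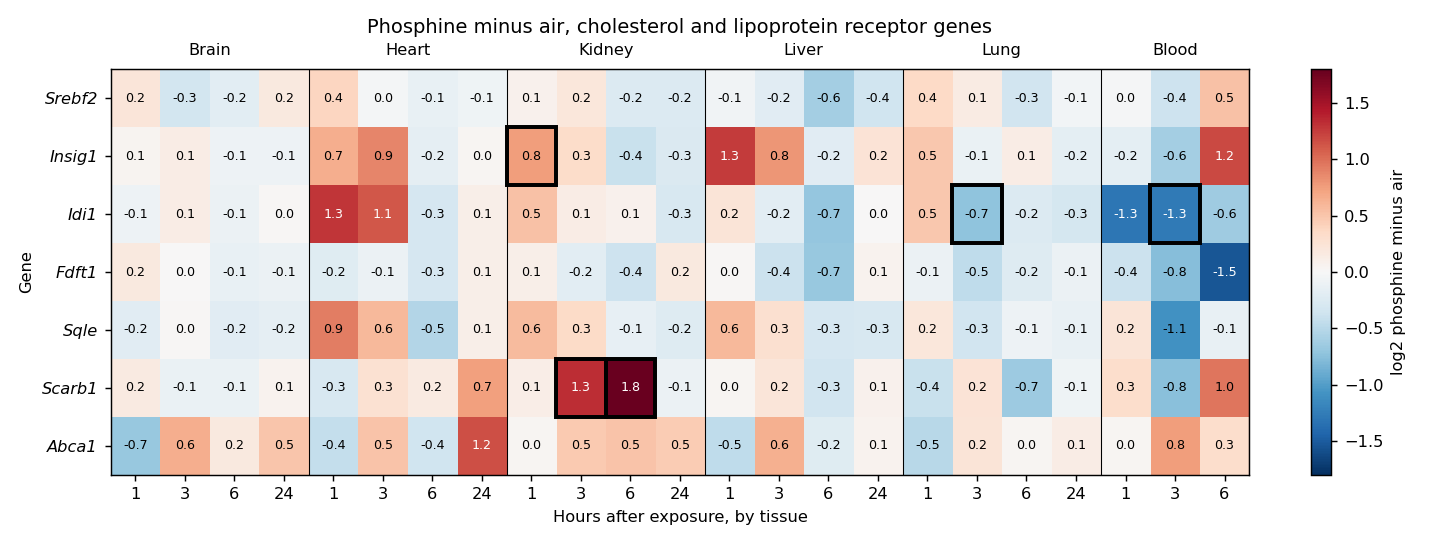
Difference phosphine minus air (log2, colour and printed value) of the 7 genes in each tissue and hour. Black frames mark the 5 pairs with an adjusted p under 0.05. Scarb1 in kidney at 3 and 6 h has the largest positive differences of the frame, 1.33 and 1.78.

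Srebf2, the gene of the transcription factor itself, passed the test in none of the 23 comparisons. Its differences in solid tissues ran between -0.61 and 0.39. The lowest was in liver at 6 h, where the 4 exposed rats had 6.42, 6.83, 7.17 and 7.17, against 7.33 and 7.69 in the 2 air rats. The groups did not overlap, at a difference of -0.61 ± 0.18 (SE) and an adjusted p of 0.221. This value passed when all air livers served as controls (adjusted p = 0.00469) and in a joint fit of the 5 solid tissues with the rat as a block (0.021), which gives each gene a single spread over the tissues. Over all 10 alternative settings it ran between -0.61 and -0.26, and 8 of them did not pass (up to 0.864). None of the 30 fits that left out a rat passed (up to 0.917). With pooled air, Srebf2 also passed in kidney at 6 h (-0.32, 0.0119) and in lung at 1 h (0.42, 0.016). A second Srebf2 probe set, near the bottom of the signal range at about 2.64 in exposed and 2.54 in air livers, differed by 0.10 the other way.

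Insig1 encodes the membrane protein that holds the SCAP-SREBP complex back. In kidney at 1 h the exposed rats had 7.94, 8.41, 8.41 and 8.55, against 7.24, 7.59, 7.71 and 7.75 in air rats. Every exposed kidney lay above every air kidney. The difference was 0.76 ± 0.17, a fold of 1.69, with an adjusted p of 0.0105. It was 0.80 (0.0184) without the air kidney of Rat720, which carried hepatocyte transcripts. The call was lost without air Rat721, the lowest kidney (difference 0.64, 0.0544), with only the 2 groups in the fit (0.11) and with the rat as a block in the joint fit of tissues (0.161).

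At later hours Insig1 in kidney differed by 0.33 ± 0.17 at 3 h, -0.40 ± 0.20 at 6 h and -0.26 ± 0.17 at 24 h, none of them called. With air of all hours pooled, those at 3 h (0.45, 0.0475) and 6 h (-0.64, 0.00532) passed. At 6 h the exposed rats had 6.97, 6.99, 7.29 and 7.44, against 7.45 and 7.70 in air rats. The exposed group was thus the higher one at 1 h and the lower one at 6 h. The difference between hours passed the test (moderated F, adjusted p = 0.0244), in a tissue where 1.75% of all genes did, and was lost without Rat721 (0.0505) or Rat762 (0.0599).

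In liver, the tissue with the highest Insig1, the exposed rats at 1 h had 11.28, 11.29, 11.29 and 11.49, against 8.59, 10.15, 10.63 and 10.92 in air rats. The exposed rats lay close together above all air rats, and the air rats were widely spread, with Rat721 the lowest. The difference of 1.26 ± 0.33 did not pass (adjusted p = 0.125). It was 0.77 without air Rat721 (0.466). It passed without air Rat726 (1.54, 0.044) and with the rat as a block in the joint fit (0.000578). Without the livers of Rat719 and Rat741 it was 1.21 (0.422). The 3' minus 5' signal of control transcripts, a gauge of RNA breakdown in log2 units, lay between 0.46 and 0.51 in the exposed livers and between 0.53 and 0.71 in the air livers at 1 h, and its part in the result was not tested.

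At 3 h Insig1 in liver stood at 10.82, 11.24, 11.35 and 11.46 in exposed rats, against 10.16, 10.19, 10.34 and 11.001 in air rats. The groups overlapped by 1 air rat, and the difference of 0.80 ± 0.33 did not pass (0.212), but did in the joint fit with the block (0.0286). In heart, Insig1 differed by 0.65 ± 0.33 at 1 h and 0.88 ± 0.33 at 3 h without passing. The 3 h value was 0.45 without Rat729 (0.529) or without all 5 hearts of the other-organ arrays (0.0969), and it passed with the rat as a block (0.015). At 24 h the difference of 0.04 turned to -0.49 without those hearts (0.32). In brain its differences stayed between -0.09 and 0.13.

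Promoter windows of RefSeq on GRCr8, 250 bases before to 50 after the start that the table uses for a gene, were found for 5 of the 8 genes: Hmgcs1, Insig1, Abca1, Srebf2 and Idi1. They are shown for Insig1 and Idi1, the synthesis-side genes with a called difference, as the bases that precede the annotated gene. The stretch at chr4:8057813-8058019 (minus strand) belongs to Insig1 and that at chr17:66547525-66547774 (minus strand) to Idi1. Capitals mark matches, on either strand, to the CCAAT box bound by NF-Y, a frequent partner of SREBP, and to the E-box CACGTG.
Insig1: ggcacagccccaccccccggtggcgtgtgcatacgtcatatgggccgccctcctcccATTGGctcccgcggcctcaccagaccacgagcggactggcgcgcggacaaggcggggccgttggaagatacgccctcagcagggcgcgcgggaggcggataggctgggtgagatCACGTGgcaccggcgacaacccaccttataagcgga
Idi1: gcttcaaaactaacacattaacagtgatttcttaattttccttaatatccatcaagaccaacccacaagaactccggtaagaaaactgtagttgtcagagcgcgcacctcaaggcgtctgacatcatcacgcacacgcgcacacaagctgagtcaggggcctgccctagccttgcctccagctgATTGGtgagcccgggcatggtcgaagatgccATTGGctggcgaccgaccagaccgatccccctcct
The search covered TCACNCCAC and its shorter form TCACNCCA, which resemble a sterol element bound by SREBP proteins and overlap one another, as well as CCAAT, the E-box CACGTG and the GC box GGGCGG. Of 33469 windows, 1.12% held TCACNCCAC, 3.89% TCACNCCA, 37.5% CCAAT, 6.42% CACGTG and 33.1% GGGCGG. The Insig1 window held 1 CCAAT, 1 CACGTG and 1 GGGCGG, and the Idi1 window 2 CCAAT. None of the 5 windows held TCACNCCAC. The start used for the Hmgcs1 window lies 2847 bases inside the annotated gene, so that window holds no bases before the gene. The window of Srebf2, a gene whose own product binds such elements, held the shorter form once, shown in capitals in 30 bases at chr7:115543140-115543169 (plus strand). The start used for the Srebf2 window lies 533 bases inside the annotated gene, so this stretch does too.
Srebf2: atgacgcgccaTCACCCCAtgagccgcttc
These matches describe letters in a window and not binding.

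Idi1 encodes the isomerase that makes the isoprenoid unit dimethylallyl diphosphate. In lung at 3 h the exposed rats had 6.43, 6.90, 7.29 and 7.42, against 7.54, 7.60, 7.78 and 8.04 in air rats. All exposed lungs lay below all air lungs. The difference was -0.73 ± 0.18, a ratio of 0.604, with an adjusted p of 0.0107. Without the lungs of exposed Rat729 and air Rat733, which carried muscle transcripts, and that of Rat716 it was -0.85 (0.0101). The call was lost without exposed Rat730, the lowest lung (-0.53, 0.0662), with only the 2 groups in the fit (0.0629) and with the rat as a block in the joint fit (0.0756). In bulk tissue, fewer cells of a type and less RNA per cell cannot be told apart. The mean of the 7 macrophage markers lay between 8.41 and 8.49 in these exposed lungs and between 7.97 and 8.27 in the air lungs, and its part in the result was not tested.

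At 1 h Idi1 in lung stood at 7.54, 7.85, 7.85 and 8.08 in exposed rats, against 7.08, 7.30, 7.43 and 7.55 in air rats. The highest air lung lay just above the lowest exposed one, and the difference of 0.49 ± 0.18 was not called (0.131). The difference was thus above 0 at 1 h and below 0 at 3 h, and it varied between hours by the moderated F test (adjusted p = 0.0227), as did 6.38% of all genes in lung, a call that was lost without air Rat720 (0.056).

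In blood at 3 h Idi1 had 3.46, 3.98, 4.03 and 4.15 in exposed rats, against 4.33, 4.93, 5.69 and 5.75 in air rats. The groups did not overlap, and the difference was -1.27 ± 0.33, a ratio of 0.415 (adjusted p = 0.0259). It was lost after quantile normalization within blood (0.0506), with only the 2 groups in the fit (0.0588), and without any one of exposed Rat728 (0.0566) and Rat729 (0.0676) and air Rat732 (0.0827) and Rat739 (0.0972). Of the 887 genes called in blood at 3 h, 779 were lower in exposed rats. The Idi1 signal in blood is low, and leaving out dim genes removes it. At 1 h the exposed rats had 3.06, 3.54, 3.76 and 4.02, against 4.73, 4.86, 4.89 and 5.08 in air rats. This difference, -1.30 ± 0.33, was as large but not called (0.278), in a comparison with 1 called gene in all. At 6 h the 5 exposed samples lay between 3.76 and 4.94, against 5.25 in the single air sample, and at 24 h the 2 exposed samples had 4.57 and 5.52.

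In heart at 1 h the direction of Idi1 was the other way. The exposed rats had 6.70, 6.78, 7.22 and 7.32, against 5.39, 5.43, 5.90 and 6.12 in air rats, with no overlap. The difference of 1.29 ± 0.42 did not pass in the fit over all hearts (0.151). It passed without the 5 hearts that carried transcripts of another organ (1.19, 0.00593) and with array weights (1.43, 0.0035). It also passed with only the 2 groups in the fit (0.0452), with the rat as a block (0.000584) and without Rat729, a 3 h rat (0.0217). It did not pass in the other 6 of 10 settings (up to 0.185) or in 29 of 30 fits that left out a rat (up to 0.36). Of the 4 exposed hearts at 1 h, Rat712 is one of the 5, with hepatocyte markers at 8.14, against 3.42 to 3.96 in the other exposed hearts and 3.80 to 4.30 in the air hearts.

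The effect on Idi1 at 3 h differed between the 5 solid tissues (moderated F over one fit of these tissues, adjusted p = 0.00341), as it did for 14.4% of all genes at that hour. Heart stood highest at 1.12 ± 0.42, followed by brain (0.14 ± 0.14), kidney (0.13 ± 0.16), liver (-0.19 ± 0.30) and lung (-0.73 ± 0.18). The heart value rests in large part on Rat729, which had 8.88 against 6.29 to 6.49 in the other exposed hearts, and was 0.50 without it. With the rat as a block, and Rat729 included, it passed (0.00233). The test between tissues still passed without the 11 arrays (0.0197).

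**Figure D3:**
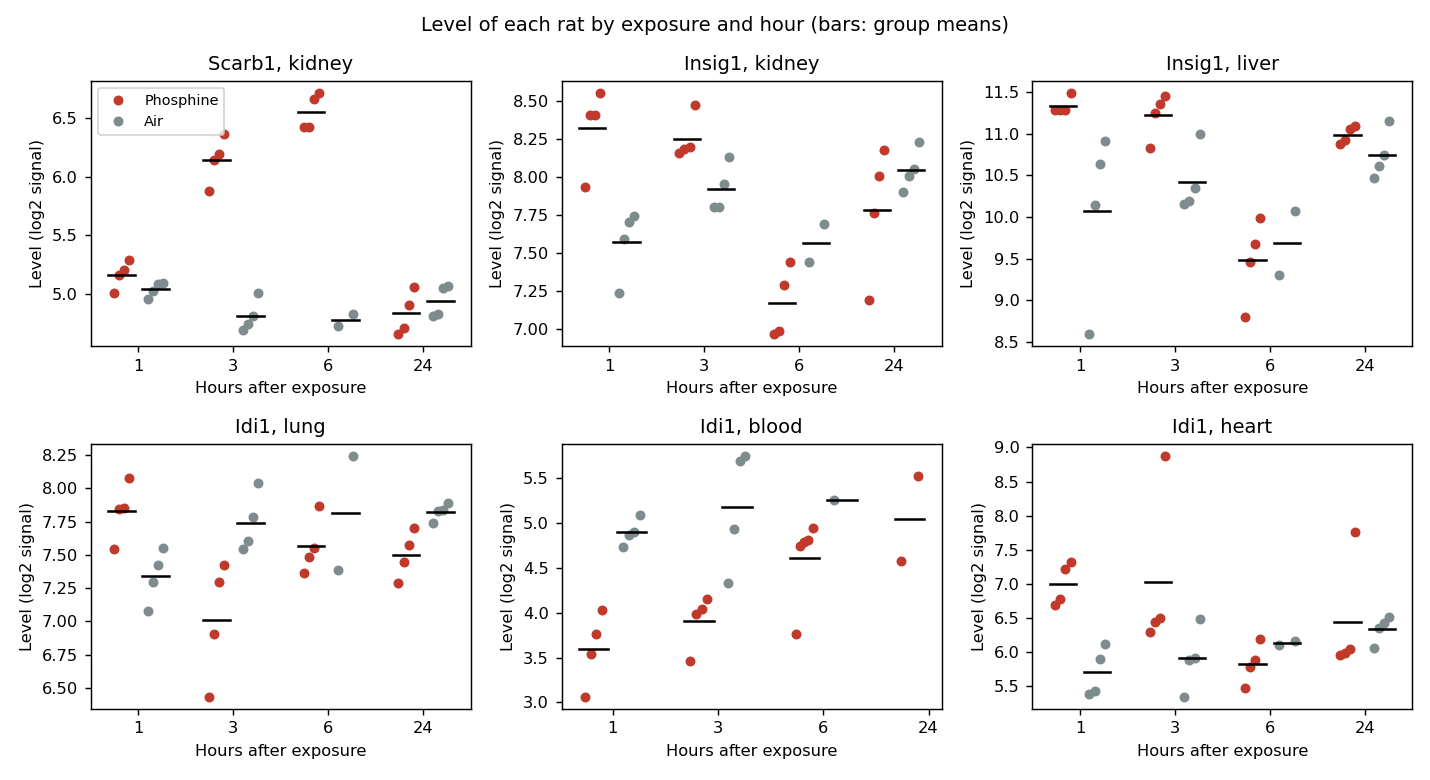
Level (log2 signal) of each rat for Scarb1 and Insig1 in kidney, Insig1 in liver, and Idi1 in lung, blood and heart, by hour. Red points are phosphine, grey points air and bars group means. Scarb1 in kidney separates completely at 3 and 6 h and not at 1 or 24 h, and Idi1 in heart at 3 h has 1 exposed rat at 8.88.

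Fdft1 and Sqle encode squalene synthase and squalene epoxidase, the enzymes that make and oxidise squalene. Neither passed in any comparison as reported. Fdft1 in solid tissues differed by at most 0.68 in size, in liver at 6 h, where the exposed rats had 8.55, 9.47, 9.55 and 9.68, against 9.78 and 10.20 in air rats. The groups did not overlap, and the difference was -0.68 ± 0.21 (0.236). It passed with the rat as a block (0.0277) and with air of all hours pooled (-0.57, 0.0125), and without exposed Rat789, the lowest liver, it was -0.42 (0.401). It did not pass in the other 8 of 10 settings (up to 0.881) or in any of 30 fits that left out a rat (up to 0.933). Its second probe set gave -0.64 in the same comparison. In lung at 3 h Fdft1 differed by -0.46 ± 0.19 (0.118), and by -0.57 at the second probe set. It passed there with the mean of both probe sets (-0.51, 0.0373), with the rat as a block (0.0415) and with air of all hours pooled (-0.52, 0.0213). In kidney at 6 h it passed with array weights (-0.39, 0.0266) and with pooled air (-0.25, 0.0293).

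Idi1 in kidney at 1 h lay between 8.08 and 8.52 in exposed rats, against 7.42 to 8.20 in air rats. The groups overlapped and the difference of 0.53 ± 0.16 was not called (0.0713). It passed without air Rat727 (0.67, 0.0155) and without Rat741 (0.0429), a 24 h rat without which the difference stayed at 0.53. It did not pass in 28 of 30 fits that left out a rat (down to 0.41, adjusted p up to 0.235). In the 10 other settings it ran between 0.25 and 0.53 and never passed (up to 0.535).

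Sqle in kidney at 1 h had 7.14, 7.36, 7.38 and 7.66 in exposed rats, against 6.33, 6.61, 7.03 and 7.29 in air rats. The groups overlapped by 1 air rat. The difference of 0.57 ± 0.17 was not called (0.0661) but was after leaving out dim genes (0.0492), without air Rat727 (0.73, 0.0119) and without Rat741 (0.0482). Without the air kidney of Rat720, the lowest, it was 0.41. It did not pass in the other 9 of 10 settings (up to 0.43) or in 28 of 30 fits that left out a rat (up to 0.236). Sqle in heart differed by 0.92 ± 0.45 at 1 h (0.459), which passed with the rat as a block (0.0199), and at 3 h by 0.59 ± 0.45 with Rat729 and -0.16 without it. In liver at 1 h it differed by 0.58 ± 0.22 and the groups did not overlap (0.474). In blood at 3 h the exposed rats had 3.29, 3.35, 3.86 and 4.41, against 4.56, 4.87, 4.90 and 4.96 in air rats, a difference of -1.10 ± 0.38 that missed the threshold (0.08) and passed without exposed Rat731 (-1.32, 0.0499).

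**Figure D4:**
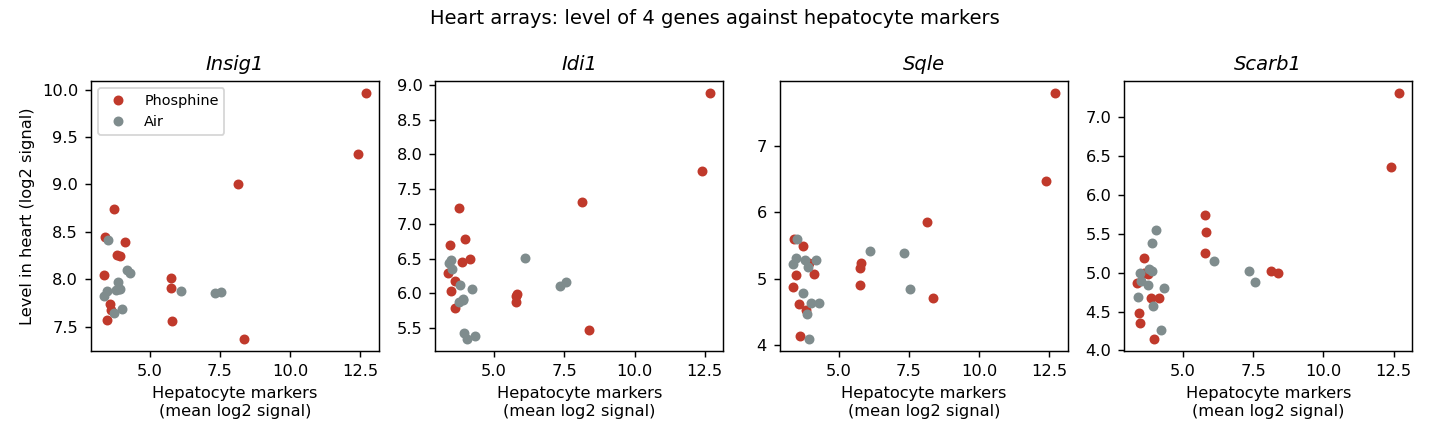
Level of Insig1, Idi1, Sqle and Scarb1 (log2 signal) on each of the 30 heart arrays against the mean log2 signal of 10 hepatocyte markers. Red points are phosphine and grey points air. The 2 exposed hearts with markers at 12.70 (Rat729) and 12.40 (Rat741) hold the highest level of all 4 genes.

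On a pair of heart arrays the members other than Srebf2 stood high together with liver transcripts. Rat729 at 3 h and Rat741 at 24 h had hepatocyte markers at 12.70 and 12.40, against between 3.37 and 8.38 on all other heart arrays. Their Scarb1 was 7.30 and 6.36, against at most 5.74 in other exposed hearts and 5.55 in air hearts. Their Abca1 was 8.003 and 8.02, against at most 6.81 and 6.07. Their Srebf2, at 6.87 and 6.75, was not set apart, against up to 6.89 in other exposed hearts and 6.79 in air hearts. The heart difference of Scarb1 at 24 h was 0.74 with these arrays and 0.19 without the 5 hearts, and that of Abca1 was 1.17 and 0.62. Neither was called in either fit.

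Scarb1 encodes the high-density lipoprotein receptor SR-BI. In kidney at 3 h the exposed rats had 5.88, 6.14, 6.20 and 6.36, against 4.70, 4.74, 4.81 and 5.01 in air rats. The groups were separated by more than the spread of either. The difference was 1.33 ± 0.10, a fold of 2.52 (adjusted p = 4.67e-09). At 6 h the exposed rats had 6.42, 6.42, 6.66 and 6.71, against 4.73 and 4.82 in the 2 air rats. The difference was 1.78 ± 0.13, a fold of 3.43 (1.99e-09).

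At 1 h the exposed kidneys had 5.003, 5.16, 5.20 and 5.29, against 4.96, 5.02, 5.08 and 5.10 in air rats, and the groups overlapped (0.12 ± 0.10). At 24 h they had 4.66, 4.71, 4.90 and 5.06, against 4.81, 4.82, 5.05 and 5.07, and again overlapped (-0.11 ± 0.10). The effect differed between hours (moderated F, adjusted p = 3.62e-08). The second Scarb1 probe set gave 0.13, 1.23 and 1.63 at 1, 3 and 6 h, with exposed kidneys between 5.06 and 6.07 at 3 h, against 4.39 to 4.58 in air kidneys.

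Both Scarb1 calls in kidney held under all alternatives run, with adjusted p-values of at most 0.000446 at 3 h and 0.00547 at 6 h. The adrenal gland lies on the kidney and is rich in SR-BI. The adrenal cortex markers measured, Cyp11a1, Cyp21a1, Star and Nr5a1 (4 of 7 listed), had a mean between 2.88 and 3.14 in exposed kidneys and between 2.82 and 2.95 in air kidneys at 3 h, and between 2.94 and 3.07 and between 2.93 and 2.98 at 6 h, near the low end of the signal range, which starts at 1.74. The 7 macrophage markers averaged between 6.66 and 6.90 in exposed and between 6.22 and 6.65 in air kidneys at 3 h, and between 6.42 and 6.70 and between 6.52 and 6.67 at 6 h. They did not overlap at 3 h and did at 6 h. The 3' minus 5' signal of control transcripts was 0.68 to 0.75 in exposed kidneys at 6 h and 0.59 to 0.60 in air kidneys. The part of adrenal tissue, of macrophages and of RNA breakdown in the result was not tested.

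In the other solid tissues Scarb1 was not called. At 3 h it differed by 0.28 ± 0.42 in heart (-0.36 without the 5 hearts of the other-organ arrays), 0.25 ± 0.21 in lung, 0.22 ± 0.14 in liver and -0.12 ± 0.11 in brain. At 6 h it differed by 0.16 ± 0.52 in heart, -0.12 ± 0.14 in brain, -0.35 ± 0.18 in liver and -0.66 ± 0.26 in lung. The lung value was -0.13 without air Rat762 and -1.18 without air Rat763, the 2 air rats of that hour. The difference between tissues passed at 3 h (adjusted p = 0.00835) and at 6 h (0.00017, where 1.35% of all genes passed). It was lost at 3 h without air Rat738 (0.0508) and at 6 h without air Rat762 (0.0579). At 1 h and 24 h none of the 7 genes differed between tissues, against 3.27% and 0.625% of all genes. Between hours, 0 of the 7 passed in brain, heart and liver, where 0.0893%, 0.424% and 0.476% of all genes did.

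Abca1, the exporter, passed in no comparison. Its most negative difference in solid tissues was -0.68 ± 0.45 in brain at 1 h, which ran between -1.11 without Rat710 and -0.36 without Rat719, and apart from heart at 24 h its most positive there was 0.65 ± 0.45 in brain at 3 h. In kidney it was 0.48 ± 0.34 at 3 h, 0.51 ± 0.41 at 6 h and 0.45 ± 0.34 at 24 h, with overlapping groups at each hour. In blood at 3 h the exposed rats had 3.09, 3.75, 3.91 and 4.14, against 2.81, 2.95, 2.95 and 3.15 in air rats, a difference of 0.76 ± 0.26 (0.0811) at a low signal, which passed without exposed Rat730 (0.97, 0.0438). Its other 3 probe sets gave 0.41, 0.31 and 0.22 there.

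Across the 20 solid-tissue comparisons, the differences of Sqle followed those of Idi1 (Pearson r = 0.84) and Insig1 (0.84), and Fdft1 followed none of the 3 as closely (0.19, 0.34 and 0.21). Scarb1 and Abca1 had an r of 0.46 with one another, and Scarb1 one of 0.02 with Sqle. Without the other-organ arrays, Sqle had an r of 0.73 with Idi1 and 0.74 with Insig1. These are descriptions, since the comparisons of one hour share rats and those of one tissue share the fit. Among 2399 genes of higher signal with a difference of at least 0.5 somewhere, those whose differences were most like the mean of Sqle, Idi1, Fdft1 and Insig1 were Cebpb (0.88), Msmo1 (0.83), Acsl3 (0.82) and Ube2l6 (0.81). For Scarb1 they were Bin2 (0.79), Lipa (0.79), the lysosomal lipase that frees cholesterol from its esters, Tmbim1 (0.74) and Gstm1 (0.73). For Abca1 they were Acy3 (0.72), Cnot6 (0.70), Senp5l1 (0.69) and Fzd8 (0.68). These genes were ranked with all arrays, the hearts of Rat729 and Rat741 included, and not ranked again without the other-organ arrays.

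The rest of the pathway was read from lists chosen by function. Of the 59 measured genes that are not members, 24 of 1180 pairs with a solid-tissue comparison passed, and 2 of 177 in blood. These are 2.03% and 1.13% of the pairs, against 1.88% and 2.22% over all genes in the same comparisons. Among the 18 cholesterol synthesis enzymes, Idi1, Fdft1 and Sqle included, 3 rose in kidney at 3 h: Dhcr7, which makes cholesterol in the last step of one branch (0.63 ± 0.13), Pmvk (0.31 ± 0.09) and Nsdhl (0.27 ± 0.08). Dhcr7 also rose in kidney at 6 h (0.74 ± 0.16). Of all genes in kidney, 6.39% were called at 3 h and 0.35% at 6 h. The median of the list in kidney was -0.02 at 3 h and -0.12 at 6 h, against -0.01 and 0.01 over all genes, and 9 and 4 of the 18 lay above 0.

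In lung at 1 h 2 of the 18 rose, Cyp51, the lanosterol demethylase (0.99 ± 0.14, adjusted p = 6.8e-05), and Hsd17b7 (0.74 ± 0.19, but 0.63 with an adjusted p of 0.0812 without the lung of Rat716 and the other arrays), and the list median was 0.21, or 0.11 without those arrays, against -0.03 over all genes. At 3 h 0 rose and 1 fell, Idi1 itself, and the median was -0.18 against 0.01. Of all genes in lung, 5.8% were called at 1 h and 11.6% at 3 h. In blood at 3 h Msmo1, the sterol methyl oxidase, fell (-1.94 ± 0.47) with Idi1, and the median was -0.56 against -0.07. In brain at 3 h Tm7sf2, a sterol reductase, rose by 0.73 ± 0.13. The share of all genes called at 3 h was 6.6% in blood and 0.506% in brain.

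In heart and liver 0 of the 18 enzymes were called at any hour. The share of all genes called ran between 0.0819% and 3.33% in heart and between 0% and 3.85% in liver. The median of the enzymes in liver at 6 h was -0.47, with 1 of 18 above 0, against -0.01 over all genes. That comparison has 2 air rats, and Rat763 stood above Rat762 in Sqle (9.16 against 8.13) and Idi1 (10.35 against 9.38). Exposed Rat789 was the lowest in Sqle (7.70), Idi1 (8.15) and Fdft1 (8.55). Over left-out rats, the Idi1 difference ran between -1.185 and -0.21. The part of these rats in the median was not tested. In heart the median was 0.58 at 3 h with 16 of 18 above 0, an hour whose exposed group holds Rat729. It was 0.01 with 9 of 18 above 0 without the 5 hearts of the other-organ arrays.

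**Figure D5:**
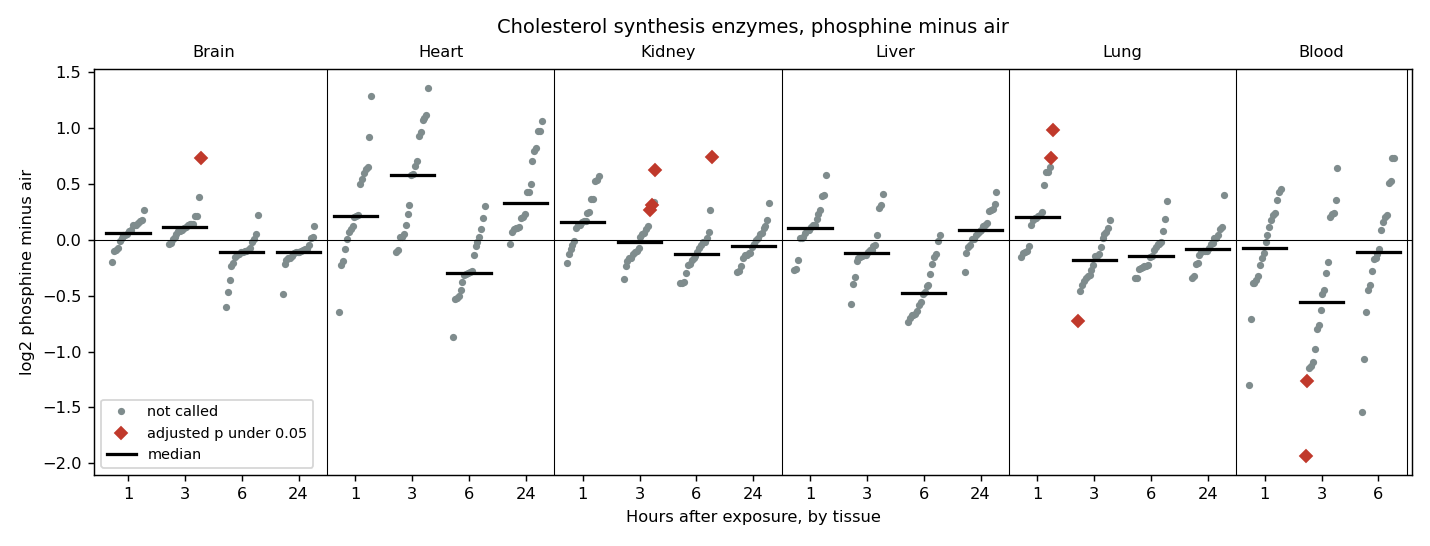
Difference phosphine minus air (log2) of the 18 measured cholesterol synthesis enzymes in each tissue and hour. Points are genes, red diamonds those with an adjusted p under 0.05, and black bars list medians. The medians lie furthest from 0 in heart at 3 h (0.58), blood at 3 h (-0.56) and liver at 6 h (-0.47).

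Over the 20 solid-tissue comparisons the median difference ran between -0.23 in liver at 6 h and 0.24 in lung at 1 h for SREBP control and target genes, between -0.09 in liver at 6 h and 0.26 in heart at 24 h for lipoprotein receptors and lipases, and between -0.18 in heart at 6 h and 0.39 in heart at 3 h for efflux, storage and liver X receptor genes. For bile acid genes it ran between -0.41 in kidney at 1 h and 1.61 in heart at 3 h. Without the other-organ arrays the bile acid medians were -0.09 in kidney at 1 h and 0.02 in heart at 3 h, the efflux median in heart at 3 h was -0.07, the receptor median in heart at 24 h was 0.05 and the SREBP median in lung at 1 h was 0.11. The efflux median in heart at 6 h was -0.23 without them, with the hepatocyte transcripts of both air hearts still present. Over all genes the median stayed between -0.03 and 0.01.

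Of the 11 measured SREBP control and target genes, Stard4, a sterol carrier, rose in lung at 1 h (0.56 ± 0.11), and Mylip, a ligase that degrades lipoprotein receptors, fell in heart (-1.16 ± 0.17) and in lung (-0.50 ± 0.13) at 1 h. Without the other-organ arrays these were -1.05 (0.00331) and -0.36 (0.115), so that the lung call was lost. Insig2, the relative of Insig1, fell in liver at 3 h: exposed rats lay between 9.98 and 10.68, against 11.11 to 11.46 in air rats (-0.82 ± 0.14, adjusted p = 0.000589). Insig1 differed by 0.80 there, in the opposite direction, without passing.

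Of the 12 lipoprotein receptors and lipases, Angptl4, an inhibitor of lipoprotein lipase, rose in heart at 3 h (2.87 ± 0.57) and 6 h (3.07 ± 0.69) and in lung at 3 h (1.89 ± 0.43). The heart values were 2.52 (0.0159) and 3.08 (0.0127) without the other-organ arrays. Olr1, a receptor of oxidised lipoprotein, rose in kidney at 6 h (1.55 ± 0.28), beside Scarb1, and its exposed kidneys lay between 3.20 and 4.60 against 2.33 and 2.53 in air rats. Vldlr, the very-low-density lipoprotein receptor, fell in lung at 3 h (-0.63 ± 0.13).

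Of the 16 efflux, storage and liver X receptor genes, Nr1h3, which encodes liver X receptor alpha, fell in lung at 1 h (-0.34 ± 0.09) and 3 h (-0.32 ± 0.09) and in liver at 3 h (-0.31 ± 0.08). Its target Abca1 was called in none of these. In lung at 3 h Soat1, which esterifies cholesterol for storage (0.58 ± 0.11), and Npc2, a lysosomal cholesterol carrier (0.37 ± 0.11), rose, and Ch25h, which makes 25-hydroxycholesterol, fell (-0.96 ± 0.28). In blood at 3 h Abcg1, another sterol exporter, fell (-1.41 ± 0.34). Of the 10 bile acid genes, Cyp7a1, which sets the pace of bile acid formation, rose in liver at 1 h: exposed rats lay between 10.82 and 11.64, against 9.18 to 10.36 in air rats (1.36 ± 0.26). Nr0b2, a nuclear receptor without a DNA-binding domain, fell in heart at 3 h (-1.38 ± 0.27), and by 1.30 without the other-organ arrays (0.0281).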

How the data were processed

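Total RNA of 174 tissue and blood samples from 33 rats was hybridised to single-colour Affymetrix rat arrays, after biotin labelling with a 3' IVT kit per the labels' protocols. The authors deposited log2 signals per probe set, made with RMA and Partek per the submitters' processing notes. Their versions are not given in the sources used here. Array medians lay between 4.16 and 4.64. Precision is set by the number of arrays, since arrays give no depth. Of 31139 probe sets, 19063 carry 1 gene symbol in the platform annotation, 572 several, 11407 none and 97 are controls, which gave 13438 genes.

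Models were fitted per tissue on log2 values in R 4.3.3 with limma 3.58.1, with a mean per exposure and hour and the spread taken over all its arrays, so that groups of 1 or 2 samples could be compared. Contrasts are phosphine minus air, with Benjamini-Hochberg adjustment over all genes and calls at an adjusted p under 0.05. Differences of the effect between hours, or between tissues in a joint fit, used moderated F tests. The fits were tested on simulated data. Rats are separate animals of an exposure group, and exposed and air rats are not paired.

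Alternatives were quantile normalization within a tissue, array median centring, the mean of probe sets, leaving out dim genes (signal under percentile 40), trend and robust eBayes, array quality weights, leaving out arrays with markers of another organ, air of all hours pooled, a fit of only the 2 groups, the rat as a block over the solid tissues (consensus correlation 0.0268, 150 arrays of 30 rats) and leaving out each rat. Names were given to all measured members, to up to 4 called genes per other list and comparison with the largest change, and to the 4 genes most alike in their differences. Members and lists were chosen with earlier results of these data known. Promoter windows and positions are from RefSeq, GRCr8. Figures were drawn with matplotlib 3.10.9 (python 3.11.15, pandas 2.3.3, numpy 2.4.6).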

Additional observations from a re-analysis of the deposited data

Results flagged for a closer look

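Of 66 groups examined for a sample standing far from the rest, in the 39 pairs of a gene and a comparison that were called or differed by at least 0.5, 6 held one. Chance gives about 1 in 20 in separate groups not chosen for a difference. These groups were chosen so and share rats, so the 6 cannot be set against that rate. In exposed hearts at 3 h, Rat729 was far above the other exposed rats in Idi1 (8.88) and Sqle (7.80), on the array with hepatocyte markers at 12.70. In exposed livers at 1 h, Rat719 was above the others in Insig1 (11.49), by a small distance since the other exposed livers lay at 11.28 and 11.29. Rat789, exposed and sampled at 6 h, was the lowest in Idi1 both in liver (8.15) and in blood (3.76), and the highest in Fdft1 in blood (5.70).

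The effect of phosphine differed between hours for Scarb1 (adjusted p = 3.62e-08) and Insig1 (0.0244) in kidney and for Idi1 in lung (0.0227). It differed between the 5 solid tissues for Idi1 at 3 h (0.00341) and for Scarb1 at 3 h (0.00835) and 6 h (0.00017), all by limma's moderated F test.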

How the results depend on the processing

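The Scarb1 calls in kidney and the absence of calls in brain held under every alternative run. Called pairs in heart were 0 as reported, 1 with array quality weights, without arrays carrying another organ's markers and with only the 2 groups in the fit, and 4 with the rat as a block. In liver they were 0, against 2 with air of all hours pooled and 4 with the block. In kidney they were 3, against 7 with pooled air and 2 with the block. In lung they were 1, against 2 with the mean of probe sets, 0 with only the 2 groups and 3 with pooled air. In blood they were 1, against 0 after quantile normalization, without dim genes (Idi1 is then left out) and with only the 2 groups, and 2 with pooled air. Leaving out each rat gave 0 to 1 in heart, liver and lung, 2 to 5 in kidney (5 without air Rat727) and 0 to 2 in blood. The block fit also gives each gene 1 spread over all solid tissues, and the cause of these shifts was not tested. Other pathway genes gave 24 calls in solid tissues as reported, against 12 with only the 2 groups (8 of them among the 24), 77 with pooled air (23) and 39 with the block (12). In blood 2 were counted, against 1 after quantile normalization and 0 (without Rat729) to 3 when each rat was left out. The effect differed between hours for 3 pairs, against 5 with array weights and 5 without the other-organ arrays, and between tissues for 3, against 6 with array weights.

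The difference of Abca1 in heart at 3 h turned to -0.26 with array weights and -0.34 without the other-organ arrays, and ran between -0.34 and 1.02 over left-out rats. That of Sqle in heart at 3 h turned to -0.16 without those arrays and ran between -0.16 and 0.94. The low end of both ranges is the fit without Rat729. That of Insig1 in blood at 3 h ran between -0.95 and 0.063 (without Rat731). None of these was called. The 6 h comparisons rest on 2 air rats, or 1 for blood, and Abca1 in blood lies near the low end of the signal.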
